A study of Homo sapiens with 6 samples.

Results

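The genes of chromosome 13 were followed along their position in A673 cells, a Ewing sarcoma line, with or without the propeptide of lysyl oxidase (LOX-PP). A gene was taken where a probe was flagged well above background on at least 3 of 6 arrays and its RefSeq accession lay on chromosome 13. Collagen, protocadherin and mitochondrial ribosomal symbols and 10 named genes were left out, and 1 probe per gene, the one of highest mean signal, was kept. Of 351 chromosome 13 genes named on the array, 285 passed the detection filter, 18 were left out by symbol and 267 remained, among 16601 named genes in all. The other 66 had no probe that passed, and 46 of these were well above background on 0 arrays. The members were thus chosen on detection in these arrays, and the chromosome was chosen with its shift already known, so the counts and medians over its genes are a description.

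Both groups were A673/TR cells, which carry the tetracycline repressor, infected with a lentiviral vector that was empty or held the LOX-PP cDNA. The 3 A673/TR/empty and 3 A673/TR/LOX-PP arrays are all labelled with doxycycline at 1 uM for 72 h. Stable clones were selected with zeocin, and the clone hybridised is not given in the sources used here, so the clone and the insert cannot be told apart. The RNA of each group came from 3 separate experiments, per the study's methods. In bulk RNA, a lower signal from fewer cells and from less RNA per cell cannot be told apart.

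Human chromosome 13 is acrocentric: its short arm carries ribosomal RNA repeats, and its protein-coding genes lie on the long arm. It is a large chromosome with few genes for its size. Among them are the retinoblastoma gene RB1, a brake on entry into DNA replication, and the host transcript of the miR-17-92 microRNA cluster.

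The single LOX probe, which may lie inside or outside the propeptide sequence, was not higher on the arrays labelled LOX-PP (a change of -0.95 on the log2 scale, limma adjusted p = 0.218), so every direction given here is that of the arrays as labelled. All 8 Ewing sarcoma markers were well above background on all 6 arrays, with a summed linear signal over the 75th percentile of 167 to 193 in the empty group and 187 to 220 in the LOX-PP group. Among the 8, CCK (-2.67, adjusted p = 0.0102) and PAX7 (-2.05, adjusted p = 0.0121) were lower, which the sum does not show. The part of these differences in the chromosome 13 values was not tested. The epithelial sum stayed between 1.58 and 2.34, the blood sum between 0.236 and 0.764 and the endothelial sum between 0.223 and 0.529, and CDH1 and TEK were well above background on 0 arrays. From 56.9 to 74.8% of spots were well above background per array. LOX-PP replicate 1 was hybridised on slide 2, apart from the other 5 arrays on slide 1, and within slide 1 the median of the chromosome 13 genes was -0.83, as with all arrays.

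Promoter sequences are shown for genes among those whose signal moved most and for 2 promoters shared by divergent neighbours, since these genes recur in the values that follow. RefSeq promoters of build GRCh38.p14 matched 223 of the 267 genes, with no entry for PHF11. Each line gives the 250 bases before the annotated start, 5′ to 3′ on the gene's strand, with matches to any searched motif in capitals.
POSTN (chr13:37598769-37599018, minus strand): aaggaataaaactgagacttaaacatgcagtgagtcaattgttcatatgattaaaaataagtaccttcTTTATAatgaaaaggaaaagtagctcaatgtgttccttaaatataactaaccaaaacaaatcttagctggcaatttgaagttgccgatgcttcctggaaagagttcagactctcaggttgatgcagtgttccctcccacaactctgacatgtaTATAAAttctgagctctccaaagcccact
CNMD (chr13:52739821-52740070, minus strand): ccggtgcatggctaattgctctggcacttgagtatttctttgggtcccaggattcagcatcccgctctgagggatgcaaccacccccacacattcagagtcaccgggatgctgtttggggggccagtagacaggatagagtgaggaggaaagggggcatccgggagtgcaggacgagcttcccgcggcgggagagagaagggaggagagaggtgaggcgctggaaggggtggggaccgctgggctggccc
DNAJC15 (chr13:43023336-43023585, plus strand): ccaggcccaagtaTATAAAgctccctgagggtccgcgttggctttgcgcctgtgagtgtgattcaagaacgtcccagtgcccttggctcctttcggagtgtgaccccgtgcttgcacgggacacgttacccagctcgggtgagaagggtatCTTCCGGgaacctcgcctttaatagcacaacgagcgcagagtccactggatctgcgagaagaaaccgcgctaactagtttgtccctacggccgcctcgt
KLF5 (chr13:73054726-73054975, plus strand): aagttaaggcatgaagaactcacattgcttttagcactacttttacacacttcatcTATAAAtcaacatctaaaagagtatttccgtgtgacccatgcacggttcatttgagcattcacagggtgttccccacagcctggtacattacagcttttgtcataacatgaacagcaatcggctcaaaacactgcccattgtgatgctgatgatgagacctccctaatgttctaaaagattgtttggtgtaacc
SOX1 (chr13:112066899-112067148, plus strand): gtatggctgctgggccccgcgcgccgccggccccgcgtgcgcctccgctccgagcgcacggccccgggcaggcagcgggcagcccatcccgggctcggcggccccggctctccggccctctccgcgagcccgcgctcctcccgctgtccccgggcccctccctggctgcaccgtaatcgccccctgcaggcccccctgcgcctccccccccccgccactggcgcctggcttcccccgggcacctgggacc
TNFSF13B (chr13:108269379-108269628, plus strand): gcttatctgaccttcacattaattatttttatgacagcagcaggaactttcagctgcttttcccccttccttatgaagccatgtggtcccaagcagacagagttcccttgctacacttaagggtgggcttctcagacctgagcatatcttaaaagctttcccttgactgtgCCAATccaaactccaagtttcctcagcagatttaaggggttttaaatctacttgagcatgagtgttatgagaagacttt
WASF3 (chr13:26557433-26557682, plus strand): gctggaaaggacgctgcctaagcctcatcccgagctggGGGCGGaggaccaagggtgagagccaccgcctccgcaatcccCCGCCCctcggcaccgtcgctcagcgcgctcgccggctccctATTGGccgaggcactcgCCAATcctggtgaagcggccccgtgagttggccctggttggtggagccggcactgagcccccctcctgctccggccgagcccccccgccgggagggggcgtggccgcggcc
TUBA3C (chr13:19181825-19182074, minus strand): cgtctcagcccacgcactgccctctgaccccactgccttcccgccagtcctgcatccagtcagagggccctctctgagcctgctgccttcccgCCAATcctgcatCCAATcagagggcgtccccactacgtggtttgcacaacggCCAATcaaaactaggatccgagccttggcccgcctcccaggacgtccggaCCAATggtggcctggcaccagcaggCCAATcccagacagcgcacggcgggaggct
BORA (chr13:72727673-72727922, plus strand): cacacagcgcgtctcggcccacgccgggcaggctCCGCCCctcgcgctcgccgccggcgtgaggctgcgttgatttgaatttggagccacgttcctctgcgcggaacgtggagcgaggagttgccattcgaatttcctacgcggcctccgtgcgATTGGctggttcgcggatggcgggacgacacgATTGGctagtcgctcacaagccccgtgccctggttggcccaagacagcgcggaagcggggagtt
POGLUT2 (chr13:102798977-102799226, minus strand): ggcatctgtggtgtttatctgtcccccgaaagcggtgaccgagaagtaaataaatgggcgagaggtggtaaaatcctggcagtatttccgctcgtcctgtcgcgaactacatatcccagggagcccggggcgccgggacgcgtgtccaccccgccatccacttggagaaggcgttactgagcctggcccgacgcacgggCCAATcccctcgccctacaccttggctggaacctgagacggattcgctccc

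A set of 7 short motifs were searched on both strands over 300 bases, 250 before to 50 after the start, and overlapping matches were counted once per promoter. CCAAT was found in 33.6% of the 223 promoters and in 35.7% of all 27305 promoters of the table. GGGCGG stood in 58.7% against 44.6%, CCGGAAG in 14.8% against 10.67%, GCGCATGC in 7.62% against 3.27% and TATAAA in 9.42% against 12%. TTTGGCGC stood in 0.897% against 0.659%, and TTTCCCGC in 2.69% against 1.66%. Over the promoters of tested genes alone, TATAAA stood in 7.76%, below the members' share, GGGCGG in 64.2%, CCGGAAG in 16.6% and GCGCATGC in 4.91%. Every one of the 7 motifs split the members into groups with medians between -1.09 and -0.77. The printed promoters of the 3 raised genes TNFSF13B, WASF3 and TUBA3C each held CCAAT, as did those of BORA and POGLUT2, which were lower. Those of POSTN, KLF5 and DNAJC15 held TATAAA, and those of CNMD and SOX1 held none of the 7 upstream of the start. Among the 41 promoters of genes called lower, 39.0% held CCAAT, 12.2% (5) TATAAA, 51.2% GGGCGG, 17.1% CCGGAAG and 7.32% GCGCATGC. TTTGGCGC and TTTCCCGC were found in 0 of them. CCAAT stood in 36.5% of the promoters of tested genes. The median GC content was 65% in the members and 64.3% in tested genes.

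Most chromosome 13 genes gave less signal on the LOX-PP arrays. Values are the log2 of the background-corrected signal over the array's 75th percentile, and a change is the LOX-PP mean minus the empty mean, less the median over all 32647 tested probes (0.13, or -0.03 after quantile normalization). The median change of the 267 genes was -0.83, with quartiles of -1.18 and -0.30 and a range from -5.61 to 1.97. Over all 16601 named genes the median was -0.09, with quartiles of -0.46 and 0.30. Of the 267 genes, 219 (82.0%) lay below the median of all probes, as did 56.5% of all named genes. A change within 0.5 of -1 was measured for 152 genes (56.9%), against 20% of all named genes.

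The limma test set the LOX-PP minus empty difference against 0, before the median over all tested probes (0.13) was subtracted. Each p-value and SE printed with a change belongs to that difference. In limma with Benjamini-Hochberg adjustment over all tested probes, 48 of the 267 genes (18%) were lower at an adjusted p under 0.05. The same call was made for 2.35% of all tested probes and for 3.36% of named genes at 1 probe each. Only 3 genes (1.12%) were higher, beside 3.3% of probes and 3.69% of named genes. All 3 LOX-PP arrays lay below all 3 empty arrays for 158 genes (59.2%), beside 18.1% of named genes, and above them for 10 genes, beside 15.5%. The 2 groups of arrays overlapped for the other 99. At an unadjusted p under 0.05 there were 155 genes (58.1%, against 23.6% of named genes). The count of lower genes was 35 without LOX-PP replicate 1, 20 without LOX-PP replicate 2, 18 without LOX-PP replicate 3, 5 without empty replicate 1, 7 without empty replicate 2 and 26 without empty replicate 3. The largest adjusted p among the called genes was 0.0493, for RFXAP, and the smallest just outside was 0.0501, for SUPT20H.

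The genes that dropped furthest were PHF11, POSTN, CNMD and DNAJC15. PHF11, a PHD-finger protein linked to transcription in lymphocytes, gave -0.90, -0.69 and -0.35 on the empty arrays and -6.08, -5.78 and -6.51 in the LOX-PP group. The groups were far apart, and the probe was well above background on no LOX-PP array. PHF11 was 31.0-fold lower with the LOX-PP mean taken per array as the higher of its own value and the lowest signal well above background. This ratio is not a lower limit: over the settings tried the limma change ran from -5.81 to -3.83 (adjusted p = 0.000341 in the main fit). DNAJC15, a mitochondrial J-domain cochaperone, gave -2.57, -2.26 and -3.08 against -6.88, -6.00 and -6.75. It too was well above background on the empty arrays only, and was 9.35-fold lower by the same rule (adjusted p = 0.00203). Its measured change of -4.03 became -2.48 after normexp correction. These 2 genes entered the set through the empty arrays alone, and their p-values rest on LOX-PP values not well above background.

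POSTN encodes periostin, a secreted matrix protein of bone and tumour stroma. Its values were 0.12, 0.70 and -0.90 on the empty arrays and -5.03, -4.71 and -4.20 in the LOX-PP group, where 2 of 3 were well above background. Its change was -4.75 ± 0.44 (SE, adjusted p = 0.00314). CNMD encodes chondromodulin, a cartilage glycoprotein that restrains vessel growth. It gave 0.81, 0.71 and 0.20 against -3.48, -3.63 and -4.46, a change of -4.55 ± 0.33 (SE, adjusted p = 0.0014). Neither gene had values that overlapped between the groups, and CNMD was well above background on 1 LOX-PP array.

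The next genes were regulators and scaffolds, again with no overlap between the groups. KLF5, a zinc finger factor of proliferating epithelia, gave -0.95, -0.01 and -1.52 against -4.11, -3.68 and -4.07 (change -3.25, adjusted p = 0.00822). FREM2, a basement membrane protein, gave -1.10, -0.77 and -2.18 against -5.34, -4.07 and -4.02 (change -3.25, adjusted p = 0.0179). In both genes the empty replicate 3 array was the lowest of its group, and 2 of 3 LOX-PP arrays were well above background.
SOX1, a neural progenitor factor, gave 0.12, 0.34 and -0.52 against -2.42, -2.45 and -3.21 (change -2.80, adjusted p = 0.00768). TBC1D4, a Rab GTPase-activating protein of insulin-stimulated glucose transport, gave 0.25, 0.27 and -0.27 against -3.06, -2.22 and -2.25 (change -2.72, adjusted p = 0.0068). The empty values of SIAH3, a relative of the SIAH ubiquitin ligases, ran from -2.55 to -2.34 and its LOX-PP values from -5.27 to -3.86 (change -2.41, adjusted p = 0.0211). For LMO7, a LIM-domain protein of cell junctions, the ranges were -0.64 to 0.30 and -2.65 to -2.01 (change -2.38, adjusted p = 0.0121). SIAH3 was well above background on 1 of 3 LOX-PP arrays, and after normexp correction its change was -1.40 and did not pass. In all, 15 genes changed by less than -2, counted with the PHF11 and DNAJC15 values as measured.

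**Figure D1:**
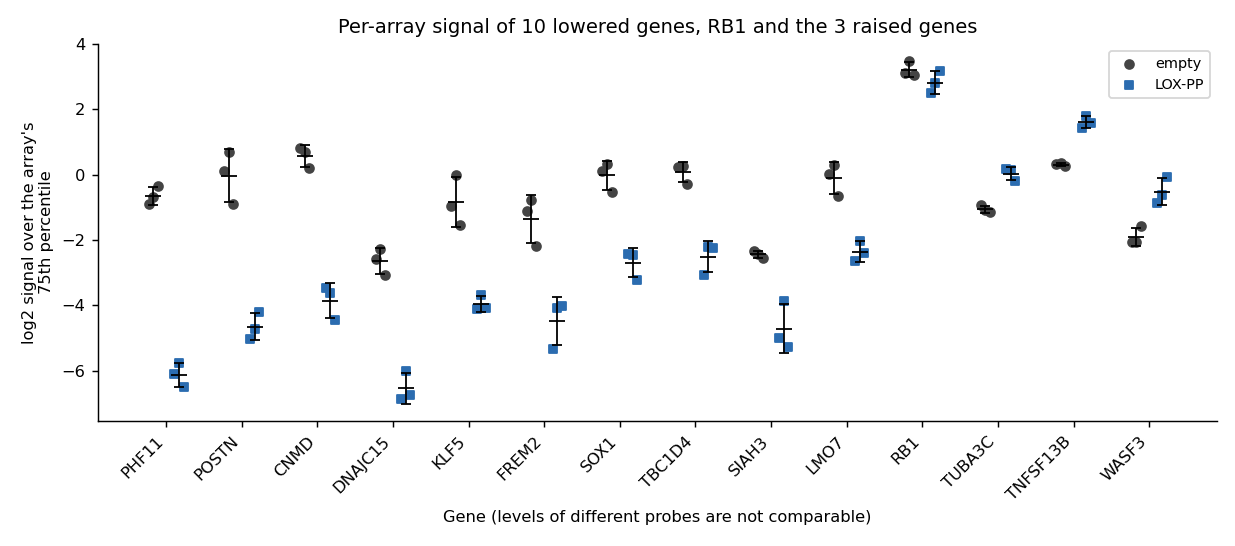
Signal on each array (log2 over the array's 75th percentile) for the 10 called genes with the largest falls, RB1 and the 3 raised genes; circles are empty arrays, squares LOX-PP arrays, and bars the group mean ± SD (n = 3). The groups are apart for every gene shown except RB1.

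The 3 raised genes were scattered along the chromosome. TUBA3C, an alpha-tubulin best known from testis, gave -0.94, -1.08 and -1.14 on the empty arrays and 0.17, 0.14 and -0.19 in the LOX-PP group (change 0.96 ± 0.21 SE, adjusted p = 0.0344). Near-identical alpha-tubulin copies exist, so the source of this signal is uncertain. WASF3, a WAVE-family activator of actin branching, gave -2.06, -2.05 and -1.57 against -0.86, -0.61 and -0.07 (change 1.25 ± 0.29 SE, adjusted p = 0.0412). TNFSF13B, the B-cell survival ligand BAFF, gave 0.32, 0.35 and 0.27 against 1.43, 1.81 and 1.60 (change 1.17 ± 0.21 SE, adjusted p = 0.0178). The calls of these 3 genes rest on the full set of arrays: no chromosome 13 gene passed as higher without LOX-PP replicate 2 or 3 or without any 1 of the empty arrays, and 7 passed without LOX-PP replicate 1.
The growth-arrest gene GAS6, a ligand of the TAM receptor kinases, had a change of 1.46 (adjusted p = 0.0872) with 1 of 3 empty and 2 of 3 LOX-PP arrays well above background. Without LOX-PP replicate 1 its change was 1.86 (adjusted p = 0.0248).

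Along the chromosome, every one of 10 blocks of 26 or 27 neighbouring genes had a median below 0. The block medians ran from -1.05 in block 7, between SUGT1 and POU4F1, to -0.58 in block 8, between OBI1 and GPR183. Blocks 1 to 6 had medians of -0.88, -0.75, -0.93, -0.93, -0.79 and -0.65, and blocks 9 and 10 had -0.84 and -0.69. From 18 of 26 genes in block 10 to 25 of 26 in block 4 lay below the median of all probes. Genes called lower were found in all 10 blocks, from 2 in block 2 to 7 in each of blocks 1, 3 and 7.

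Leaving out each array in turn moved the lowest block median between -1.17 and -0.94 and the highest between -0.73 and -0.44. Relative to each gene's 6-array mean, the block medians ran from 0.10 to 0.65 on the empty arrays and from -0.56 to -0.13 on the LOX-PP arrays. No block of any LOX-PP array reached the level of that block on any empty array. Over all 267 genes, the medians were 0.34, 0.47 and 0.24 on empty replicates 1 to 3 and -0.37, -0.28 and -0.39 on LOX-PP replicates 1 to 3. Each LOX-PP array taken alone against the empty mean put 80.1 to 81.6% of the genes below the array's median of all probes.

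**Figure D2:**
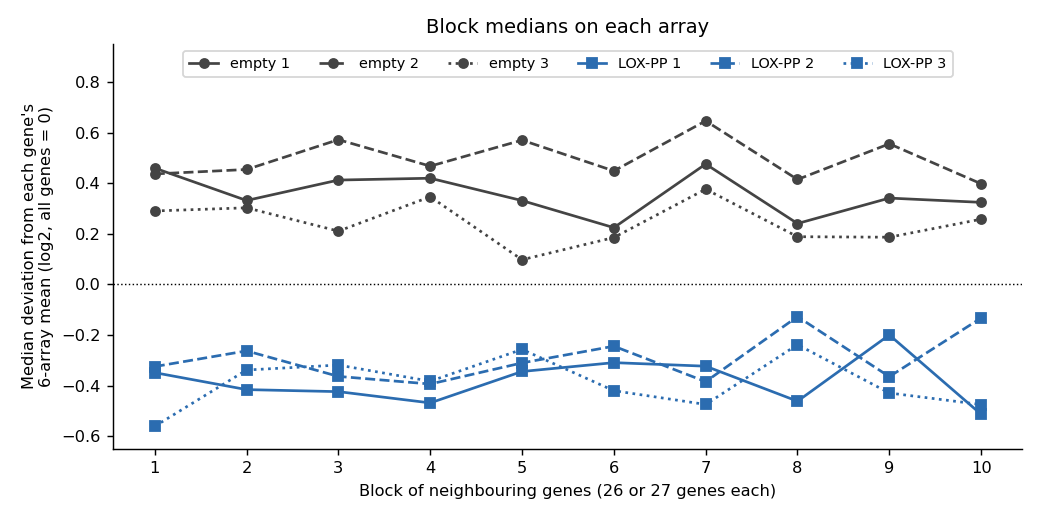
Median deviation of the genes of each of 10 blocks from their 6-array means (log2, with the median of all named genes at 0), 1 line per array. The 3 empty arrays lie between 0.10 and 0.65 and the 3 LOX-PP arrays between -0.56 and -0.13 in every block.

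At the chromosome's ends, the first member LINC00442, a long noncoding RNA, had a change of 0.85 (adjusted p = 0.163) and was well above background on 2 empty and 3 LOX-PP arrays. The last, CHAMP1, a protein of spindle attachment at kinetochores, had -1.27 (adjusted p = 0.0699). RB1 lay near the middle. It gave 3.12, 3.48 and 3.06 on the empty arrays and 2.49, 2.80 and 3.17 in the LOX-PP group, and the groups overlapped through LOX-PP replicate 3. Its change was -0.53 ± 0.26 (SE, adjusted p = 0.43).

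The gene of smallest p in each block was, in order, IL17D (-1.50), POMP (-1.66), DCLK1 (-2.14), POSTN, DNAJC15, PHF11, CNMD, FARP1 (-1.56), BIVM (-1.46) and SOX1. IL17D is a cytokine, POMP assembles the proteasome, DCLK1 is a microtubule-binding kinase and FARP1 a regulator of the actin skeleton. Each of these 10 genes was called, with adjusted p-values up to 0.0188, and none had groups that overlapped. Both are favoured by the choice on smallest p. The block's brightest gene was chosen on signal instead. TPTE2 (-0.92), EXOSC8 (-1.05), CARS2 (-0.89) and LAMP1 (-0.56) had LOX-PP values below all empty values without passing the threshold. RPL21 (0.50), HMGB1 (-0.04), TPT1 (0.34), HNRNPA1L2 (0.39), BTF3P11 (-0.13) and IPO5 (-0.31) had groups that overlapped.

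Several of these bright genes are members of multicopy families. RPL21 and TPT1 encode a ribosomal protein and a growth-linked protein, HMGB1 a DNA-bending protein and HNRNPA1L2 (well above background on 2 of 3 empty arrays) a relative of the splicing factor HNRNPA1. Processed copies of such genes lie elsewhere in the genome, so the locus these probes read is uncertain. HMGB1 gave 5.56, 5.80 and 5.81 on the empty arrays and 6.65, 5.11 and 5.68 in the LOX-PP group. LOX-PP replicate 1, on slide 2, was the highest of the 6 for HMGB1, and also for RPL21 and HNRNPA1L2. Over the whole set, 12 genes were more than 1 unit higher on LOX-PP replicate 1 than on both other LOX-PP arrays, while 145 genes were lowest on it among the LOX-PP arrays.

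The median change was nearest 0 among the dimmest probes. With all named genes split by mean signal into 5 classes of like size, the dimmest class held 55 chromosome 13 genes with a median change of -0.09, and all genes of that class had 0.24. In the other classes, from dim to bright, the chromosome 13 genes had medians of -0.95, -1, -0.90 and -0.76. All genes there had 0.03, -0.21, -0.27 and -0.14. From 88.0 to 92.1% of the chromosome 13 genes lay below the median of all probes in these 4 classes, and 50.9% in the dimmest. The net signal of negative control spots ran from 64.4 to 575 across the arrays, and its part in the dim values was not tested.

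The 215 genes well above background on all 6 arrays had a median of -0.88, and the 52 seen on 3 to 5 arrays had -0.29. Over all named genes these 2 classes had -0.13 and 0.26. Of the chromosome 13 genes, the first group ranged from -2.80 to 1.25 and the second from -5.61 to 1.97. Just inside the detection limit were 24 genes seen on 3 arrays, and just outside it 10 genes seen on 2. Coding genes (232) had a median of -0.89 with 47 (20.3%) called lower. The 35 noncoding RNAs and pseudogenes had -0.14 with 1 (2.86%) called lower, near the 3.36% of all named genes.

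That gene was DLEU1, a long noncoding RNA from the region often deleted in chronic lymphocytic leukaemia. It gave 2.62, 2.67 and 2.52 on the empty arrays and 1.51, 1.88 and 1.47 in the LOX-PP group (change -1.11 ± 0.22 SE, adjusted p = 0.0488). MIR17HG, the host of the miR-17-92 cluster, gave -1.22, -1.04 and -1.33 against -1.75, -1.67 and -2.34 (change -0.85, adjusted p = 0.168). The groups did not overlap for either RNA, and the mature microRNAs were not measured.

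The genes were also grouped by function in 12 lists. Each list had a median below that of all probes, and the medians ran from -1.12 to -0.59. Under the settings tried, the highest median of any list was -0.34, in the receptor list. The counts that follow read against the 18% of all 267 genes called lower and the 82% below the median of all probes, and the lists were not compared with each other by a test.

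In the cell cycle and mitosis list, 17 of 19 genes were measured, all 17 lay below the median of all probes, and 4 (23.5%) were lower with none higher. NEK3, a NIMA-related kinase, gave 1.05, 1.10 and 1.15 against -1.34, -0.74 and -0.28 (change -2.02, adjusted p = 0.0178). BORA, which helps Aurora A switch on PLK1 before mitosis, gave 1.64, 1.62 and 1.62 against 0.17, 0.66 and 0.46 (change -1.32, adjusted p = 0.0276). The empty arrays of both genes lay close together and well above the LOX-PP arrays. PDS5B of the cohesin complex (-1.39) and TUBGCP3 of the gamma-tubulin ring (-1.31) were the other 2. The brightest genes, CDC16 of the anaphase-promoting complex (-0.82, adjusted p = 0.106) and TFDP1, the partner of E2F factors (-1.11, adjusted p = 0.0572), did not pass. In the DNA repair list of 5 genes none passed the test (3 did at an unadjusted p under 0.05), PARP4 was at -0.75 (adjusted p = 0.149), and the values ran from -0.04 for HMGB1 to -1.18 for the ubiquitin ligase scaffold CUL4A (adjusted p = 0.0521).

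Of 15 transcription factors 12 were measured, 11 lay below the median of all probes, and 4 were lower. These were KLF5, SOX1, the zinc finger factor ZIC5 (-1.47) and RFXAP, a part of the complex that drives MHC class II genes (-1.27). The brightest were POU4F1 (-0.77, adjusted p = 0.13), a sensory neuron factor, and TSC22D1 (-0.85, adjusted p = 0.211). Among 14 genes of the transcription machinery and chromatin, 12 lay below and 3 were lower: PHF11, SAP18 of the Sin3 corepressor (-2, adjusted p = 0.0238) and CDK8 of the Mediator kinase module (-1.90, adjusted p = 0.0314). GTF3A, which starts 5S ribosomal RNA transcription, gave 5.17, 5.30 and 5.64 against 4.18, 4.45 and 4.86. Its groups did not overlap, but its change of -1 did not pass (adjusted p = 0.116), nor did that of the Mediator subunit MED4 (-0.68, adjusted p = 0.258).

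Of 20 genes for RNA processing, nuclear transport and translation, 18 lay below and 3 were lower: NUFIP1, a snoRNP assembly factor (-2.04), XPO4, an exportin (-1.56), and PCID2, a part of the mRNA export complex (-1.34). The 2 above were RPL21 and TPT1. Of 22 genes for ubiquitin, the proteasome and protein folding, 21 lay below, and DNAJC15, POMP (-1.66) and the ubiquitin hydrolase UCHL3 (-1.32) were lower, while the bright chaperone HSPH1 had -0.61 (adjusted p = 0.259). Among 14 measured genes of the endoplasmic reticulum, Golgi and lysosome, all lay below and 3 were lower, among them POGLUT2 (-1.53) and the Golgi tether subunit COG6 (-1.40). The glycosylation enzyme ALG5 was at -1.01 (adjusted p = 0.0575).

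The mitochondria and metabolism list had the lowest median, -1.12, and in all 15 of its genes the LOX-PP arrays lay below the empty arrays. The same held for 59.2% of all 267 genes and for 18.1% of named genes. The 6 lower genes were DNAJC15, CLYBL (-2.23), TGDS (-1.60), PCCA (-1.25), SLC25A30 (-1.15) and MIPEP (-1.03). PCCA, a subunit of propionyl-CoA carboxylase, gave 3.54, 3.56 and 3.65 against 2.26, 2.54 and 2.59 (adjusted p = 0.0282). CARS2 and ESD, the brightest of the list, were at -0.89 (adjusted p = 0.106) and -1.04 (adjusted p = 0.079).

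Receptors, ligands and surface proteins had the median nearest 0, -0.59. Of 30 genes 19 were measured, 12 lay below the median of all probes, POSTN and the gap junction protein GJA3 (-1.57) were lower, and TNFSF13B was higher. GJA3 was well above background on 1 of 3 LOX-PP arrays, and after normexp correction its change was -1 and did not pass. The brightest were IRS2, the insulin receptor substrate (-0.84, adjusted p = 0.11), and the glypican GPC6 (-1.40, adjusted p = 0.11). In the GTPase, kinase and lipid signalling list of 19 genes, 6 were lower: TBC1D4, DCLK1, STARD13 (-1.67), FARP1, RAP2A (-1.48) and RASA3 (-1.38). WASF3 was higher, and STK24, the brightest of the list, had -1.02 (adjusted p = 0.121). Of 8 measured transporters 3 were lower: the arginine carrier SLC7A1 (-1.38), the lysosomal SLC46A3 (-1.21) and the mitochondrial SLC25A30. The proton pump subunit ATP12A had a change of 1.28 (adjusted p = 0.0897), with 1 of 3 empty arrays well above background, and without LOX-PP replicate 1 it had 1.64 (adjusted p = 0.0212). The last list held DLEU1 and MIR17HG.

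Of 266 adjacent pairs, 197 (74.1%) lay on the same side of the median of all probes and 184 (69.2%) both below it. With 82% of the genes below, most pairs share a side whatever their order, so these shares say little of neighbours as such. The longest run below held 28 genes in a row, from SPART to NAA16, and was picked out after the values were seen.

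Closer neighbours were the 12 head-to-head pairs, divergent genes whose starts lay within 1000 bases of each other. In 11 of them both genes lay on the same side, and in 9 both lay below, which reads against the 74.1% and 69.2% of adjacent genes. The median difference between partners was 0.35 here and 0.38 in 787 such pairs on other chromosomes. BORA and MZT1, a small gamma-tubulin ring protein, start 294 bases apart. MZT1 gave 3.55, 3.63 and 3.68 on the empty arrays and 2.81, 2.50 and 2.79 in the LOX-PP group (change -1.05, adjusted p = 0.0509), close to the limit that BORA passed. POGLUT2, a glycosyltransferase of Notch repeats, and BIVM start 143 bases apart, and both were lower. POGLUT2 gave 1.67, 2.01 and 1.73 against 0.03, 0.56 and 0.61 (change -1.53, adjusted p = 0.0254). BIVM gave 1.58, 1.70 and 1.67 against 0.19, 0.36 and 0.40 (change -1.46, adjusted p = 0.014). The 2 genes differed by less than their standard errors of 0.25 and 0.20.

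Other pairs were less alike. NUFIP1 gave -0.43, -0.54 and -0.53 against -2.92, -2.36 and -1.95, and was lower (-2.04, adjusted p = 0.0146). Its partner GPALPP1, whose start lies 67 bases away, had values that overlapped and a change of -0.54 (adjusted p = 0.373). RBM26 (-0.58) and its antisense RNA RBM26-AS1 (0.22) were the pair on opposite sides. The remaining pairs were LNX2 (-1.19) with POLR1D (-1.16), PROSER1 (-1.55) with NHLRC3 (-0.92), DIS3 (-1.74, well above background on 3 of 6 arrays) with PIBF1 (-0.92), COMMD6 (-1.05) with UCHL3 (-1.32), UBAC2-AS1 (-0.52) with UBAC2 (-0.90), DCUN1D2 (-1.04) with SLC9D1 (-1.26), TPT1 (0.34) with TPT1-AS1 (0.02) and GAS6 (1.46) with GAS6-DT (0.11). Of these, PROSER1 and UCHL3 passed the test.

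Dimmer probes of the same genes gave a second reading, from the same arrays. In 76 genes, 100 such probes were tested. Of these, 81 lay below the median of all probes, 88 lay on the same side as the gene's brightest probe, and their median change was -0.64. The median absolute difference between an extra probe and the brightest was 0.32. Among all 100 extra probes, 11 were called lower and 1 higher, beside 2.35% and 3.3% of all tested probes. For the 9 called lower genes that had extra probes, all 11 of those probes lay below, and 5 passed the test by themselves. The 2 extra probes of DCLK1, at -2.36 and -1.25, both passed.

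Probes of a few genes disagreed in size. The brightest probe of IPO5, an importin, had -0.31 and its extra probe -1.60 (adjusted p = 0.0292). TRIM13, a ubiquitin ligase, had -0.46 and -1.78 (adjusted p = 0.0315). PROSER1 had -1.55 and -0.23 (adjusted p = 0.861), so its call rests on 1 of 2 probes, and their mean had -0.90 and did not pass. The extra probes of the called genes CDK8 (-0.92), LMO7 (-1.56), MIPEP (-1.42) and STARD13 (-0.87) did not pass either. Nor did 1 extra probe of FARP1 (-0.89). The only extra probe that passed as higher was that of DZIP1, a cilium protein, at 1.27 (adjusted p = 0.04) beside 0.81 for its brightest probe. The 9 probes of RPL21 ran from -0.43 to 0.55, and none passed.

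Beside the other chromosomes, with no test of the difference, chromosome 13 had the lowest median. Over all 285 genes that passed the filter, the symbols left out included, it was -0.82. The next was chromosome 8 with -0.42 over 559 genes, then chromosome 4 with -0.29 over 578 genes, and the highest was chromosome 19 with 0.12 over 1232 genes. Of the genes on chromosomes 13, 8 and 4, 17.9%, 10.6% and 5.36% were called lower.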

How the data were processed

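RNA of 3 A673/TR/empty and 3 A673/TR/LOX-PP samples was labelled with Cy3 and hybridised to Agilent 60K arrays, and spot intensity values from Feature Extraction 10.7, background-corrected and flagged, were deposited. The deposited log2 values equal that intensity scaled to each array's 75th percentile and centred by probe, to within 0.0059. Here control and outlier spots were left out, log2 intensity was averaged per probe (50599), the 75th percentile subtracted, and 32647 probes well above background on at least 3 arrays were tested with limma 3.58.1 in R 4.3.3 (lmFit, eBayes, no block), and called under 0.05 after Benjamini-Hochberg adjustment. The fit was tested on simulated data. The precision of each value is limited by the 3 arrays per group.

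Accessions were named through a RefSeq table (55.7% of probes matched), used for names and gene order only, because the array was designed on another assembly. The members, lists, motifs and tests were chosen with earlier results of these data known. Genes were named by rule: the brightest and the smallest-p gene of each block, all called higher, the 10 largest called falls, the 2 brightest and 2 smallest-p genes of each list, head-to-head pairs, the ends, RB1, and further list members with values. SPART, NAA16 and SUPT20H, the block ends, and the genes whose probes disagreed (TRIM13, DZIP1) were named after their values were seen. The alternatives were also run for these genes where the text gives a value. Alternatives were quantile normalization, the authors' processed values, scaling to the median of detected probes, normexp (offset 50) on the median signal, other detection filters, the mean over probes, slide and replicate blocks, the methods' t-test, and leaving out each array. The replicate numbers were not used as pairs in the main fit. Deviations of same-numbered arrays correlated at 0.26, -0.38 and 0.22, and those of arrays with unlike numbers from -0.46 to 0.39. With 3 arrays per group these values cannot decide whether the samples were paired. The replicate block gave 14 lower genes.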

Additional observations from a re-analysis of the deposited data

How the results depend on the processing

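Every alternative kept the median change of the chromosome 13 genes, all 10 block medians and all 12 list medians below 0. The median moved by more than its spread between arrays only after quantile normalization (-0.70) and on leaving out single arrays (-0.95 to -0.70). The share of genes below the median of all probes was 75% with no filter on dim probes, 83.1% with slide as a block, 86.6% over probes well above background on all arrays, and 81.6 to 83.5% on leaving out single arrays. The count of lower genes was 8 with no filter on dim probes, 14 with the replicate block and 11 by the methods' t-test after Benjamini-Hochberg adjustment, and ran from 5 to 35 on leaving out single arrays. It was 64 with slide as a block, 61 over probes well above background on all arrays and 52 after quantile normalization. The count of higher genes was 0 with no filter, 0 with the replicate block, 1 by the t-test, 6 with slide as a block, and 0 to 7 on leaving out single arrays. The cause of these differences was not tested. Leaving out an array or adding the replicate block left fewer residual degrees of freedom, while the other settings kept every array. The share of neighbours on the same side ran from 70.1 to 80% and the number of extra probes below from 78 to 90 of 100, under settings chosen for these 2 measures after seeing the data.

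Of 45 called genes given with values, only PHF11, CNMD and DNAJC15 kept their call in all settings that tested them, and none changed direction. None of these 3 was tested over probes well above background on all arrays. PHF11 and DNAJC15 entered the set through the empty arrays alone, so their kept calls add no support. Of 711 alternative values of the 45 genes, 426 kept their call and 285 did not pass the threshold. Of the 49 genes given with values that were not called, 29 alternative values passed. Genes near 0 changed sign without passing: BTF3P11 (0.0011 after quantile normalization, -0.30 to 0.011 on leaving out single arrays), GAS6-DT (-0.067 with no filter, -0.18 after quantile normalization), HMGB1 (0.019 over probes well above background on all arrays, and -0.49 to 0.39 on leaving out single arrays), RBM26-AS1 (-0.21 after quantile normalization, -0.0067 with slide as a block), RPL21 (-0.0017 after quantile normalization) and TPT1-AS1 (-0.16 with no filter, -0.0064 after normexp, -0.0604 with slide as a block). For RBM26-AS1 leaving out single arrays gave values from -0.19 to 0.47, and for TPT1-AS1 from -0.12 to 0.13.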
